A study of Mus musculus with 16 samples.

Results

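The genes described here are 9 cathepsins, *Ctsa*, *Ctsb*, *Ctsc*, *Ctsd*, *Ctsh*, *Ctsk*, *Ctsl*, *Ctss* and *Ctsz*, and the cystatin *Cst3*. They were picked by symbol from the deposited count table, where each has a single row, and make up 10 of its 47069 genes. All 10 passed the filter on low counts. The RNA came from macrophages grown out of bone marrow (BMMs) of C57BL/6 mice aged 8 to 10 weeks, cultured in L929-conditioned media and harvested on day 7. Both groups were primed overnight with 10 ng/mL IFNγ and activated for 1 hr with 100 ng/mL LPS and IgG-opsonized ovalbumin (LPS/ICs). They differed in that 1 group received DAPT at 25 μM and the other 0.01% DMSO, the vehicle. The study's methods place the addition of DAPT or DMSO overnight before activation, whereas figure legends give a shorter time. Changes before activation and after it cannot be told apart here. DAPT inhibits γ-secretase and is called GSI below. It keeps Notch receptors from being cleaved, but also blocks the cleavage of other membrane proteins, and no resting or unprimed cells were compared here. Each group had 2 libraries, and the labels do not say whether they came from separate cultures or mice. The p-values thus cover no spread beyond that of these libraries.

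Cathepsins are the proteases of lysosomes. Most are cysteine proteases, whereas cathepsin D is an aspartic protease and cathepsin A a serine carboxypeptidase. They are made as inactive proenzymes, carried to the lysosome largely by mannose 6-phosphate receptors and activated there at low pH. In macrophages they degrade ingested proteins, and cathepsin S trims the invariant chain that occupies MHC class II molecules. Cystatins bind and block cysteine cathepsins: cystatin C, the product of *Cst3*, is secreted, cystatin F, the product of *Cst7*, can reach the lysosome, and stefin B, the product of *Cstb*, is cytosolic.

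The libraries held 42694655 and 56932059 counts for DMSO and 48483661 and 49511733 for GSI, and 3 counts corresponded to 0.0527 to 0.0703 CPM. CPM are counts per 1000000 counts of the library, with its total adjusted by TMM, and a fold change is GSI over DMSO from edgeR's quasi-likelihood test. The FDR is its Benjamini-Hochberg adjusted p over 13211 genes, and a gene was called when the FDR was under 0.05. Of 8 macrophage markers, 6 fell with GSI, where 21.9% of all tested genes did, including *Csf1r* and *Cd14*. *Mertk* rose, and *Cd68* did not pass the test (log2 fold change 0.18). Their summed level was 12278 and 12485 CPM with DMSO and 9489 and 10414 CPM with GSI. Summed markers of neutrophils reached at most 1.43 CPM, those of dendritic cells 5.53, of B cells 0.535, of fibroblasts 0.162 and of T cells 0.062 in any library, with *Elane* and *Prtn3* at 0 in all 4.

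With GSI, the called genes among the 10 did not all move in the same direction, as was also so over all tested genes. Among the cathepsins, only *Ctsc* was called lower. *Ctsz* and *Ctsk* rose 2.06-fold and 2.08-fold, *Ctsb* and *Ctsd* rose 1.20-fold and 1.17-fold, *Ctsc* fell by 30.1% and *Cst3* fell by 12.5%. *Ctsa*, *Ctsh*, *Ctsl* and *Ctss* did not pass the test. Thus 6 of 10 were called, where 40.8% of all tested genes were. Of these, 4 were higher with GSI (19.0% of all tested genes were called higher) and 2 were lower (21.9% of all tested genes were called lower). The 2 genes that at least doubled, *Ctsz* and *Ctsk*, stand against 1.87% of all tested genes. That count rests on values close to the limit: without GSI replicate 1 the log2 fold changes were 0.99 and 0.86, and that of *Ctsk* was 0.96 without DMSO replicate 1 and 0.94 with run 1 of each replicate only. The DMSO and GSI libraries did not overlap for 9 of the 10 genes, where 70.6% of all tested genes did not overlap. In 6 of them GSI was higher (35.8% of all tested genes) and in 3 lower (34.8% of all tested genes). The study's second threshold, an absolute log2 fold change over 1.5 besides the FDR, was passed by 2.91% of all tested genes, and the largest change among the 10 was 1.06. The median log2 fold change was 0.08 over the 10 genes and 0.01 over all tested genes. A fit without 1 library leaves 1 in its group, so the spread within groups then comes from the other group alone. This limits every call said below to be held or lost in such fits. Leaving out 1 library at a time left 3 to 5 of the 10 called, 2 to 4 higher and 1 lower, the fewest without DMSO replicate 1, where the share of all tested genes called was also lower, at 30.7%. Over the 4 such fits that share was 30.7% to 36.5%.

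**Figure D1:**
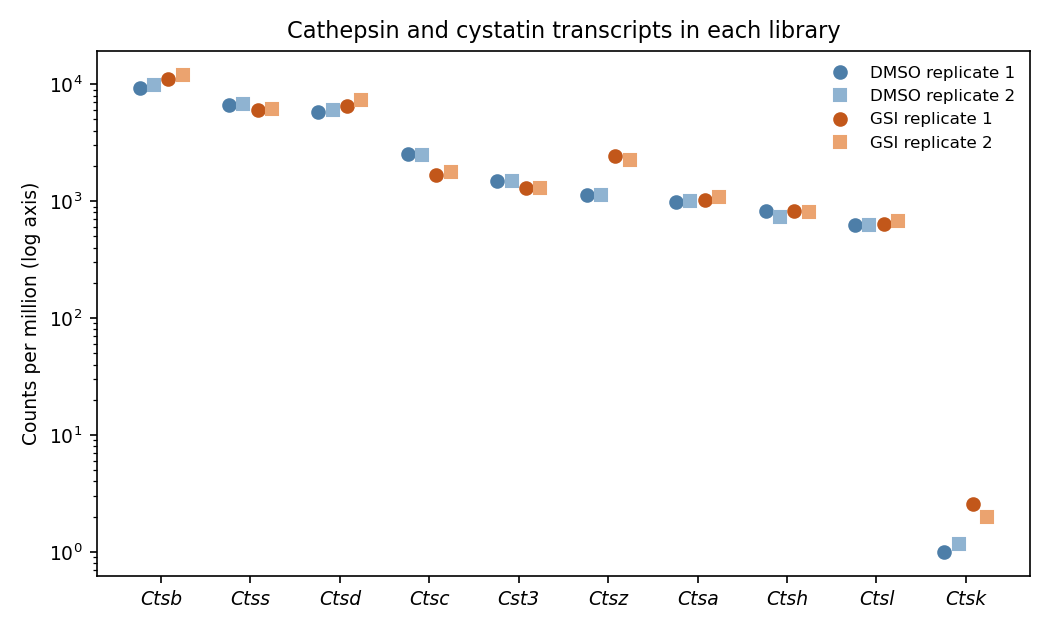
CPM (log axis) of each of the 10 genes in the 4 libraries; circles are replicate 1, squares replicate 2, blue DMSO and orange GSI, 1 point per library. The points of *Ctsz* and *Ctsk* with GSI sit well above those with DMSO, those of *Ctsc* sit below, and *Ctsk* lies far under the other genes at 1.00 to 2.57 CPM.

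*Ctsz* encodes cathepsin X, a carboxypeptidase that removes single residues from the C-terminal end of proteins. It lies on the minus strand at chr2:174427493-174439039 (GRCm38; ENSMUSG00000016256), in 6 exons. Its level was 1135 and 1132 CPM with DMSO and 2422 and 2246 CPM with GSI. Both GSI libraries were far above both DMSO libraries, which were nearly equal to each other. The log2 fold change was 1.04 (SE 0.075, 95% confidence interval 0.89 to 1.20, FDR = 1.24e-09). It stayed between 0.99 and 1.10 when any 1 library was left out, and the call held each time. As in any bulk sample, a different number of cells of a type and a different amount of RNA per cell cannot be told apart. *Nelfcd*, on the other strand, shares 10 exon bases with *Ctsz* and had at most 1357 counts in a library, against at least 48815 for *Ctsz*.

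*Ctsc* encodes cathepsin C, the dipeptidyl peptidase that activates the serine proteases of granulocytes, mast cells and cytotoxic lymphocytes. It lies on the plus strand at chr7:88278085-88310888 (GRCm38; ENSMUSG00000030560). Its level was 2514 and 2465 CPM with DMSO and 1690 and 1792 CPM with GSI. Both GSI libraries were below both DMSO libraries. On the log2 scale the difference was -0.52 (SE 0.074, 95% confidence interval -0.67 to -0.36, FDR = 1.23e-05), between -0.56 and -0.47 with 1 library left out. Its direction was that of the 6 macrophage markers that fell, such as *Csf1r* at -0.56 and *Cd14* at -0.64; the part of this in the result was not tested. Of the 8 serine proteases listed as substrates of cathepsin C, none reached the filter on low counts and 6 were at 0 in all 4 libraries.

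*Ctsz* and *Ctsc* thus exchanged places in the counts. There were 0.451 and 0.459 *Ctsz* counts for each *Ctsc* count with DMSO, and 1.43 and 1.25 with GSI. The groups did not overlap, but this was fixed beforehand. *Ctsz* was higher and *Ctsc* lower in both GSI libraries, and the pair was chosen after its values were seen. For 2 against 2 libraries, 0.333 is the smallest p that an exact two-sided permutation test can give. The 250 bases before the annotated start of both genes are given because these were the abundant genes of the group that changed most, in opposite directions. They were taken from RefSeq (GRCm38.p6) and are written 5′ to 3′ on the gene's strand. Capitals mark the GC box GGGCGG, searched on both strands, which stands in 35.7% of 32851 promoter windows of 300 bases.
*Ctsz*, chr2:174439040-174439289, minus strand: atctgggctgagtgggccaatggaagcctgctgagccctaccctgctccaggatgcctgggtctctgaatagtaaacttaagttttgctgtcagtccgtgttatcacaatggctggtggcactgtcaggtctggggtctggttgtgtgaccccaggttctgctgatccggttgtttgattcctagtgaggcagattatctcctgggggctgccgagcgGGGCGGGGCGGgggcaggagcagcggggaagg
*Ctsc*, chr7:88277835-88278084, plus strand: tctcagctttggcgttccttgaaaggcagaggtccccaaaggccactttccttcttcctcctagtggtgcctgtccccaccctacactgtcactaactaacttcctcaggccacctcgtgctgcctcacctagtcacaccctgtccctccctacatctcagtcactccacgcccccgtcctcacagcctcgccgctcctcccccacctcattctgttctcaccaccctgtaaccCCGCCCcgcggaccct
The *Ctsz* stretch holds 2 GC boxes that overlap by their last and first G, and its GC content is 58.8%. The *Ctsc* stretch holds 1 GC box, on the opposite strand, and its GC content is 60.4%. The core TGGGAA of the site of RBPJ, the DNA-binding partner of cleaved Notch, was searched on both strands over the whole windows and stands in 25.6% of all of them. It was in neither of these windows and, among the 8 genes with a window, only in that of *Cst3*, at -144 from the start. The window of the cystatin *Cst7*, described below, also held it, at -153. *Ctsb* and *Ctsh* were not among the windows. Such matches describe these letters and are not evidence of binding.

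*Ctsk*, the collagen-degrading cathepsin best known from osteoclasts, was the scarcest of the 10. It lies at chr3:95499256-95509362, next to *Ctss* at chr3:95526786-95556403, both on the plus strand (GRCm38; ENSMUSG00000028111 and ENSMUSG00000038642). The DMSO libraries held 43 and 66 counts of it (1.00 and 1.16 CPM), and the GSI libraries 124 and 98 (2.57 and 1.98 CPM). Both GSI libraries were above both DMSO libraries. The log2 fold change was 1.06 with an SE of 0.207, the widest of the 10, and a 95% confidence interval of 0.63 to 1.49 (FDR = 3.6e-04). It ranged from 0.86 to 1.24 with 1 library left out, and the call held.

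Osteoclast markers did not move as a block beside *Ctsk*. *Atp6v0d2*, a subunit of the lysosomal proton pump, rose from 14.6 and 13.7 to 30.4 and 25.9 CPM (log2 fold change 1.00, FDR = 4.16e-08). *Acp5*, the tartrate-resistant acid phosphatase, rose with a log2 fold change of 0.30 (FDR = 0.0365), while *Ocstamp*, needed for osteoclast fusion, fell by 0.51 on the log2 scale (FDR = 0.00146). *Dcstamp* stayed at 1.07 to 1.22 CPM. *Calcr* and *Oscar* were at 0 to 0.0827 CPM. The summed level of the 6 markers was 31.4 and 30.9 CPM with DMSO and 45.7 and 42.7 CPM with GSI. Their part in the *Ctsk* result was not tested.

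The abundant genes whose levels followed *Ctsk* most closely were sought among 7581 tested genes with a mean of at least 10 CPM, by the root mean square distance of log2 CPM centred over the 4 libraries. *Fth1*, the ferritin heavy chain, was nearest at 0.0757, followed by *Mt1*, a metallothionein, at 0.0878 and *Hmox1*, heme oxygenase, at 0.0905. *Fth1* had 4713 and 5078 CPM with DMSO and 11953 and 9903 CPM with GSI. *Hmox1* had 119 and 139 CPM with DMSO and 265 and 244 CPM with GSI. In each, as in *Ctsk*, DMSO replicate 1 was the lowest library and GSI replicate 1 the highest. The genes were chosen by this likeness, so the shared order is not a separate result. *Ctsk* itself had only 43 to 124 counts in a library, so its profile carries counting error. Likeness over 4 libraries rests on few points.

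Among the remaining cysteine endopeptidases, *Ctsb* encodes cathepsin B, which also trims dipeptides from C-terminal ends. It lies on the plus strand at chr14:63122462-63145923 (GRCm38; ENSMUSG00000021939). Its level was 9369 and 9891 CPM with DMSO and 10996 and 12103 CPM with GSI. The groups did not overlap, but the gap between them was about as wide as the gap within GSI. The log2 fold change was 0.26 (SE 0.079, 95% confidence interval 0.10 to 0.43, FDR = 0.0114). Without DMSO replicate 1 it was 0.22 and was no longer called (FDR = 0.129). *Fdft1*, on the other strand, shares 774 exon bases with *Ctsb* and had 270 to 453 counts, against at least 403094 for *Ctsb*.

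*Ctss*, cathepsin S, stood at 6673 and 6780 CPM with DMSO and 6076 and 6119 CPM with GSI. Both GSI libraries were lower, yet the gene was not called: the log2 fold change was -0.14 (SE 0.074, 95% confidence interval -0.30 to 0.01, FDR = 0.134). *Ctsb* counts per *Ctss* count were 1.40 and 1.46 with DMSO and 1.81 and 1.98 with GSI. As *Ctsb* was higher and *Ctss* lower in both GSI libraries, this rise was fixed beforehand. *Ctsl*, cathepsin L, on the minus strand at chr13:64359337-64370890 (GRCm38; ENSMUSG00000021477), stood at 624 and 631 CPM with DMSO and 633 and 678 CPM with GSI. GSI replicate 1 was almost level with DMSO replicate 2. Its log2 fold change was 0.06 (95% confidence interval -0.09 to 0.21, FDR = 0.525), the upper end being a 1.16-fold rise.

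*Ctsh* encodes cathepsin H, an aminopeptidase, on the plus strand at chr9:90054152-90076089 (GRCm38; ENSMUSG00000032359). Its level was 818 and 736 CPM with DMSO and 826 and 807 CPM with GSI. It was the only 1 of the 10 genes whose groups overlapped, since DMSO replicate 1 lay between the GSI libraries. Its log2 fold change was 0.07 (95% confidence interval -0.09 to 0.23, FDR = 0.479). Without DMSO replicate 2 it was -0.0054 (FDR = 0.975).

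*Ctsd* encodes cathepsin D, the main aspartic protease of lysosomes, on the minus strand at chr7:142375911-142388038 (GRCm38; ENSMUSG00000007891). Its level was 5773 and 6084 CPM with DMSO and 6576 and 7282 CPM with GSI. As for *Ctsb*, both GSI libraries were higher and GSI replicate 2 was the highest. The log2 fold change was 0.23 (SE 0.079, 95% confidence interval 0.06 to 0.39, FDR = 0.027). The call was lost without DMSO replicate 1 (0.19, FDR = 0.205), without DMSO replicate 2 (0.26, FDR = 0.0643) and without GSI replicate 2 (0.15, FDR = 0.14).

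*Ctsa* encodes cathepsin A, which also protects the sialidase NEU1 and β-galactosidase in a lysosomal complex. It lies on the plus strand at chr2:164832873-164841032 (GRCm38; ENSMUSG00000017760). Its level was 978 and 995 CPM with DMSO and 1019 and 1084 CPM with GSI, with no overlap. It was not called (log2 fold change 0.09, 95% confidence interval -0.06 to 0.25, FDR = 0.334). *Pltp*, on the other strand, shares 495 exon bases with *Ctsa* and had 30021 to 48311 counts, against 42069 to 56437 for *Ctsa*. The libraries were strand-specific but the strand setting of the counting is not given in the sources used here, so whether reads of the overlap entered both counts was not tested. Of the 3 genes of the complex, *Neu1* rose from 88.9 and 88.1 to 118 and 123 CPM (log2 fold change 0.44, FDR = 3.57e-05), while *Glb1* (-0.08) and *Galns* (0.01) were not called.

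*Cst3*, the secreted inhibitor, lies on the minus strand at chr2:148871722-148875692 (GRCm38; ENSMUSG00000027447). Its level was 1484 and 1500 CPM with DMSO and 1305 and 1306 CPM with GSI. The libraries of each group were nearly equal and the groups were apart. GSI against DMSO, the log2 fold change was -0.19 (SE 0.072, 95% confidence interval -0.34 to -0.04, FDR = 0.0382). The call was lost whichever of the 4 libraries was left out, with values of -0.20 to -0.19 and an FDR of 0.0716 to 0.157.

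**Figure D2:**
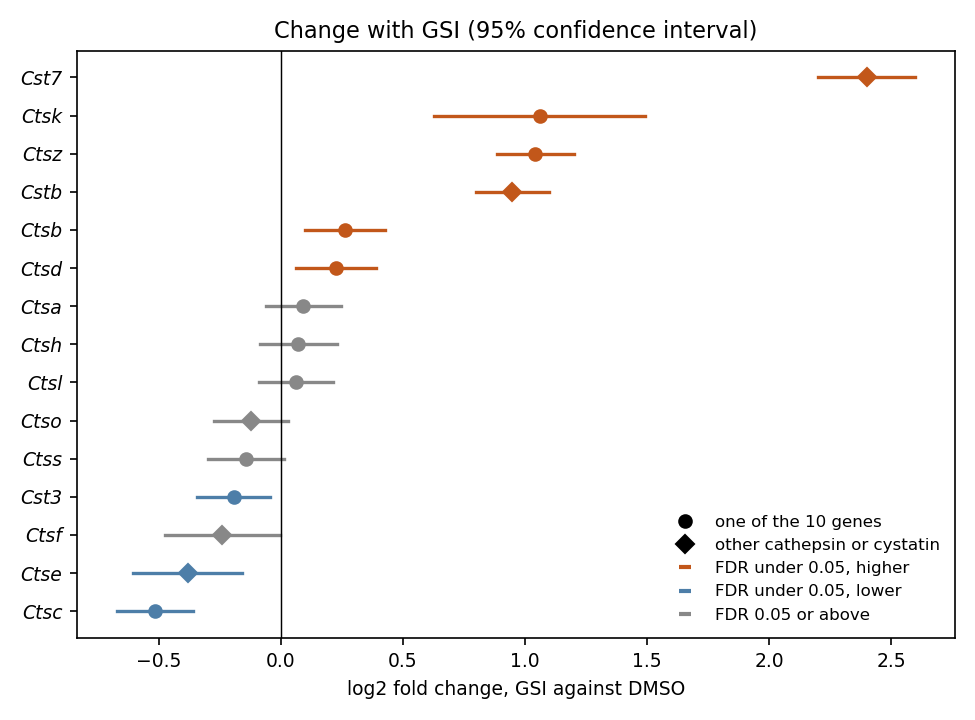
Log2 fold change (GSI against DMSO, horizontal axis) with its 95% confidence interval for the 10 genes (circles) and for the 5 other tested cathepsins and cystatins (diamonds), 2 libraries per group; orange is higher and blue lower at an FDR under 0.05, grey is not called. *Cst7* stands apart at 2.40, *Ctsk*, *Ctsz* and *Cstb* lie near 1, and *Ctsc* is the lowest at -0.52.

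The other 2 cystatins that could be tested rose, where 19.0% of all tested genes did. Of 24 cystatins and stefins listed, 21 were in the table, 14 of them at 0 in all libraries, and 2 passed the filter on low counts, *Cst7* and *Cstb*. *Cst7*, cystatin F, an inhibitor of cathepsin C and other cysteine cathepsins, had 12.6 and 12.2 CPM with DMSO and 71.7 and 58.7 CPM with GSI. Both GSI libraries exceeded DMSO several-fold, the largest change of any cathepsin or cystatin tested (log2 fold change 2.40, SE 0.095, 95% confidence interval 2.20 to 2.60, FDR = 2.34e-13). *Cstb*, stefin B, had 266 and 255 CPM with DMSO and 520 and 487 CPM with GSI (log2 fold change 0.95, SE 0.072, 95% confidence interval 0.80 to 1.10, FDR = 2.47e-09). Both calls held with any 1 library left out, *Cst7* at 2.25 to 2.54 and *Cstb* at 0.90 to 1.00.

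Within the cystatins, there were 0.179 and 0.170 *Cstb* counts per *Cst3* count with DMSO and 0.398 and 0.373 with GSI. There were 0.0050 and 0.0049 *Cst7* counts per *Ctsc* count with DMSO and 0.0425 and 0.0328 with GSI. Each of these ratios sets a gene higher with GSI over a gene lower with GSI, so its rise was fixed beforehand. The summed counts of *Cst3*, *Cstb* and *Cst7* per count of the 9 cathepsins were 0.0632 and 0.0616 with DMSO and 0.0627 and 0.0577 with GSI. For these sums the groups overlapped (exact two-sided permutation p = 0.667). Taken over *Cst3* alone, the 9 cathepsins gave 18.8 and 19.1 counts per *Cst3* count with DMSO and 23.2 and 24.6 with GSI. That is a ratio of 1.26 between the group means, with no overlap (exact two-sided permutation p = 0.333, the smallest possible). Both of the last ratios count all 9 cathepsins, including *Ctsd* and *Ctsa*, which are not cysteine proteases.

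Of 14 other cathepsins, 9 were at 0 in all libraries and 3 passed the filter. *Ctse*, the aspartic cathepsin E, had 11.4 and 9.85 CPM with DMSO and 8.17 and 8.12 CPM with GSI (log2 fold change -0.38, FDR = 0.00723). It was not called without DMSO replicate 1 (-0.28, FDR = 0.112) or with run 1 of each replicate only (-0.36, FDR = 0.0734). *Ctsf* and *Ctso*, further cysteine cathepsins, were also lower in both GSI libraries but were not called. Their log2 fold changes were -0.24 (95% confidence interval -0.48 to -0.0049, FDR = 0.0951) and -0.12 (-0.27 to 0.03, FDR = 0.191). *Ctsf* was called without GSI replicate 2 (-0.39, FDR = 0.0126) and with the replicate number as a block (-0.24, FDR = 0.0336). Without GSI replicate 1 it was at -0.10 (FDR = 0.575), and DESeq2 gave an FDR of 0.283. With 1 library left out *Ctso* ranged from -0.18, without GSI replicate 2, to -0.07, without GSI replicate 1, and was not called. With run 1 of each replicate only, *Ctsf* was at -0.40 and *Ctso* at -0.19, neither called.

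**Figure D3:**
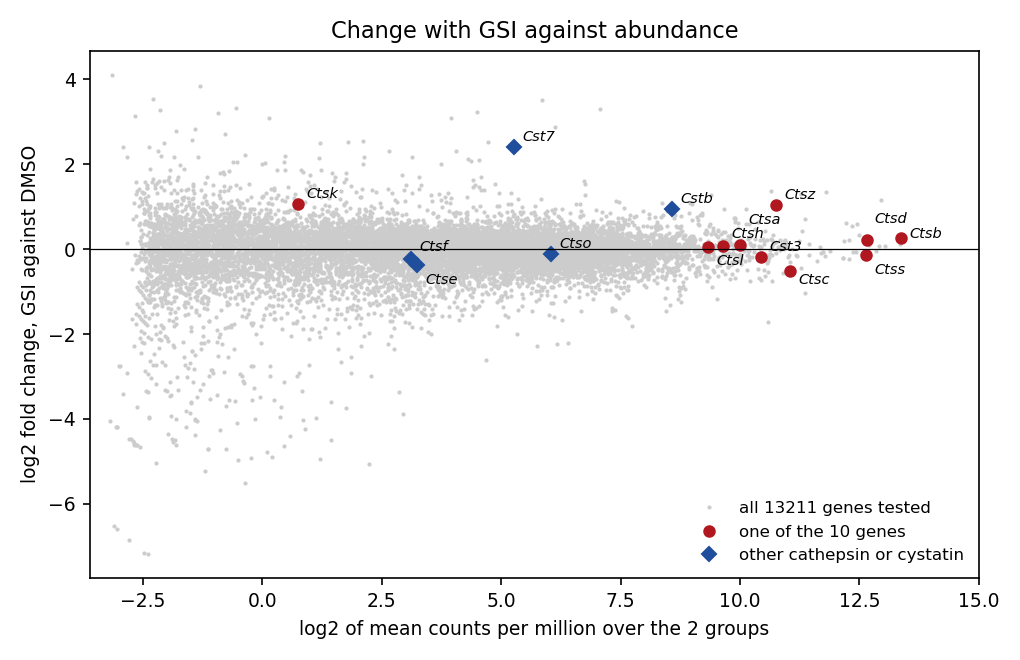
Log2 fold change (GSI against DMSO) against log2 of the mean CPM, for all 13211 tested genes (grey), the 10 genes (red circles) and the other tested cathepsins and cystatins (blue diamonds). All of the 10 but *Ctsk* sit at the abundant end, where the grey points are narrow about 0. Among these members *Ctsz* is the highest and *Ctsc* the lowest, while some other abundant genes changed more.

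Together the 10 genes took 2.96% and 3.01% of all counts with DMSO and 3.15% and 3.33% with GSI. *Ctsb* alone was 32.3% of these counts on average with DMSO and 35.5% with GSI. *Ctss* went from 22.6% to 18.8% and *Ctsd* from 19.9% to 21.3%. These 3 made up most of the group in every library. *Ctsz* went from 3.80% to 7.20% and *Ctsc* from 8.36% to 5.36%. *Cst3* went from 5.01% to 4.02%, and the shares of *Ctsa*, *Ctsh* and *Ctsl* differed by -0.0736, -0.0945 and -0.0898 percentage points. In all, 8.04 percentage points of the counts were reallocated among the 10 genes. Libraries of the 2 groups did not overlap for any share but that of *Ctsh* (exact two-sided permutation p = 0.333 for each, the smallest possible, and 0.667 for *Ctsh*). These shares sum to 100% and are not independent. Those of *Ctsa* and *Ctsl* were lower with GSI although their CPM were higher in both GSI libraries. In CPM, the groups did not overlap for 70.6% of all tested genes.

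**Figure D4:**
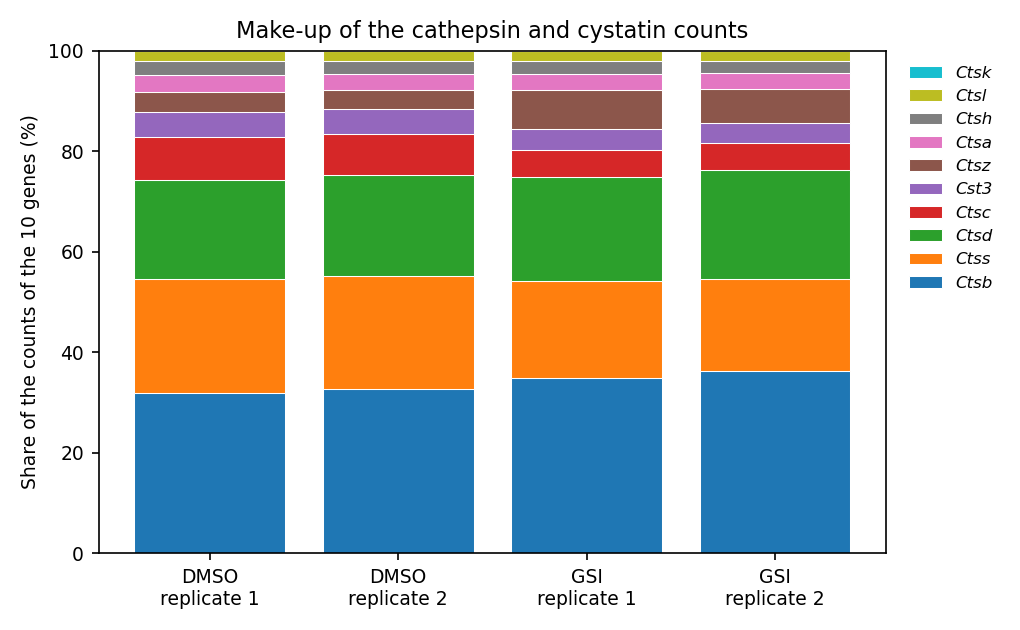
Share of the summed counts of the 10 genes (%, vertical axis) taken by each gene, 1 bar per library. *Ctsb*, *Ctss* and *Ctsd* fill most of each bar, and with GSI the band of *Ctsz* widens from 3.80% to 7.20% on average while that of *Ctsc* narrows from 8.36% to 5.36%; *Ctsk*, at 0.0036% to 0.0070%, is too thin to see.

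Per kilobase of merged exons, the order of the mean level over the 4 libraries differed from that of the counts. *Ctss* led with 4722 CPM per kb, before *Ctsd* with 2734 and *Ctsb* with 1750. *Ctsz* (1203) and *Cst3* (1105) followed, then *Ctsc* (364), *Ctsa* (216), *Ctsh* (177) and *Ctsl* (98.9). *Ctsk* was last with 1.11 CPM per kb. The 4 libraries of *Ctsb* and *Ctsz* overlapped, as did those of *Ctsz* and *Cst3*, whereas all other neighbours were apart. Within each group *Ctsb* was above *Ctsz*, at 1548 and 1635 against 787 and 785 CPM per kb with DMSO and at 1817 and 2000 against 1681 and 1559 with GSI. *Ctsz* lay under *Cst3* with DMSO, where *Cst3* had 1172 and 1185 CPM per kb, but above it with GSI, where *Cst3* had 1031 in both libraries. The order in the middle depended on the length used: with the APPRIS principal transcript only 5 of the 10 genes kept their rank, *Ctss*, *Ctsd*, *Ctsb* and *Ctsk* among them. *Ctsl* rose to 326 CPM per kb in that case, since its merged exons span 6489 bases and its principal transcript 1971.

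Of 11 regulators of lysosomal genes, 5 rose (19.0% of all tested genes did), none fell and 6 were not called, with a median log2 fold change of 0.14 against 0.01 over all tested genes. The 5 calls among 11 are near the 40.8% of all tested genes that were called. *Rragd*, a RagD GTPase of the mTORC1 pathway, rose from 8.55 and 7.88 to 19.1 and 17.6 CPM (log2 fold change 1.16, SE 0.097, FDR = 8.5e-09). *Fnip2* and *Flcn*, partners in the folliculin complex that acts on the Rag GTPases, rose by 0.56 (FDR = 7.67e-06) and 0.54 (FDR = 2.67e-05) on the log2 scale. The other 2 were *Mcoln1*, a lysosomal calcium channel, with 0.45, and *Tfeb*, a master regulator of lysosomal genes, with 0.35; both were chosen after their values were seen. *Tfe3* and *Mitf*, of the same family as *Tfeb*, were at -0.10 and 0.05 and were not called.

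TFEB and its relatives bind E-boxes with the letters CACGTG, so these letters were searched in the 9 promoter windows of the 8 genes, from 250 bases before to 50 bases after the start. They read the same on both strands and stand in 7.15% of the 32851 windows. Among the 10 genes they were found in *Ctsa*, *Ctsd* and *Ctsl*, and not in the windows of *Ctsc*, *Ctsk*, *Ctss*, *Ctsz* or *Cst3*. Each site is given with up to 12 bases on either side, on the gene's strand (RefSeq, GRCm38.p6), with the E-box in capitals.
*Ctsa*, -12 from the start of its second window, chr2:164833749-164833778: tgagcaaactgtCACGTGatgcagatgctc
*Ctsa*, 5 from that start, chr2:164833766-164833795: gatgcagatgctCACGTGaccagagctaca
*Ctsd*, -245 from the start, chr7:142388055-142388077: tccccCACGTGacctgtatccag
*Ctsd*, -98 from the start, chr7:142387908-142387937: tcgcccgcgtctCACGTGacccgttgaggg
*Ctsl*, -236 from the start, chr13:64370739-64370768: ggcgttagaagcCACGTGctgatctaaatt
The longer form TCACGTGA, which contains the E-box and stands in 0.974% of all windows, matched both *Ctsa* sites and the *Ctsd* site at -98. Of the 3 genes with an E-box in the window, *Ctsd* was called higher and *Ctsa* and *Ctsl* were not called. The 2 genes that at least doubled, *Ctsz* and *Ctsk*, had none in these 300 bases, and *Ctsb*, also called higher, had no window. Such matches or their absence describe letters only. Whether TFEB or its relatives act on any of these genes was not tested.

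Of 14 genes that deliver or activate lysosomal proteases, 2 rose, 4 fell and 8 were not called, with a median log2 fold change of 0.04. These counts are near the 19.0% higher and 21.9% lower of all tested genes. *Sort1*, sortilin, a sorting receptor that works beside the mannose 6-phosphate receptors, fell from 6.48 and 7.03 to 4.03 and 3.32 CPM (log2 fold change -0.88, FDR = 2e-05). *Laptm5*, a lysosomal membrane protein of blood cells, fell by 0.54 on the log2 scale (FDR = 1e-05). *Gga2*, an adaptor that loads these receptors at the Golgi, rose from 27.3 and 30.2 to 40.9 and 45.7 CPM (log2 fold change 0.59, FDR = 8.77e-06). The mannose 6-phosphate receptors *M6pr* (0.07) and *Igf2r* (-0.13) were not called.

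Of 11 genes of the MHC class II route, in which cathepsin S acts, 1 rose, 1 fell and 9 did not pass the test, where 40.8% of all tested genes did. Their median log2 fold change was 0.03. *H2-Oa* rose from 9.51 and 8.74 to 19.7 and 19.8 CPM (log2 fold change 1.12, FDR = 8.44e-09). Its partner chain *H2-Ob* fell by 0.29 on the log2 scale (FDR = 0.0349), a call that was lost without DMSO replicate 2 and without GSI replicate 1, where the value was -0.19, and with DESeq2 (FDR = 0.145) or run 1 only. *Cd74*, the invariant chain, was at 0.10 with an FDR of 0.34.

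Of 9 serpins listed beside the cystatins as protease inhibitors, 8 were tested, of which 4 rose (19.0% of all tested genes did), 1 fell (21.9%) and 3 were not called, with a median log2 fold change of 0.38. *Serpina3g*, an intracellular inhibitor of cysteine cathepsins, rose from 324 and 317 to 670 and 685 CPM (log2 fold change 1.08, FDR = 3.6e-10). *Serping1*, the C1 inhibitor, rose from 9 and 16 to 41 and 46 counts (log2 fold change 1.82, SE 0.336, FDR = 2.01e-04). With run 1 of each replicate only its log2 fold change was 3.28 (SE 0.787), and it did not pass a filter of at least 10 counts in every library. *Serpinb9*, an inhibitor of granzyme B, rose by 0.47 on the log2 scale (FDR = 1.52e-05). *Serping1* and *Serpinb9* are best known as inhibitors of serine proteases rather than of cathepsins. The other 2 that rose were *Serpina3g* and *Serpina3f*, the latter at 0.29 (FDR = 0.00284) and named after its value was seen. The *Serpina3* genes are close copies of each other, so reads may be split among them.

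**Figure D5:**
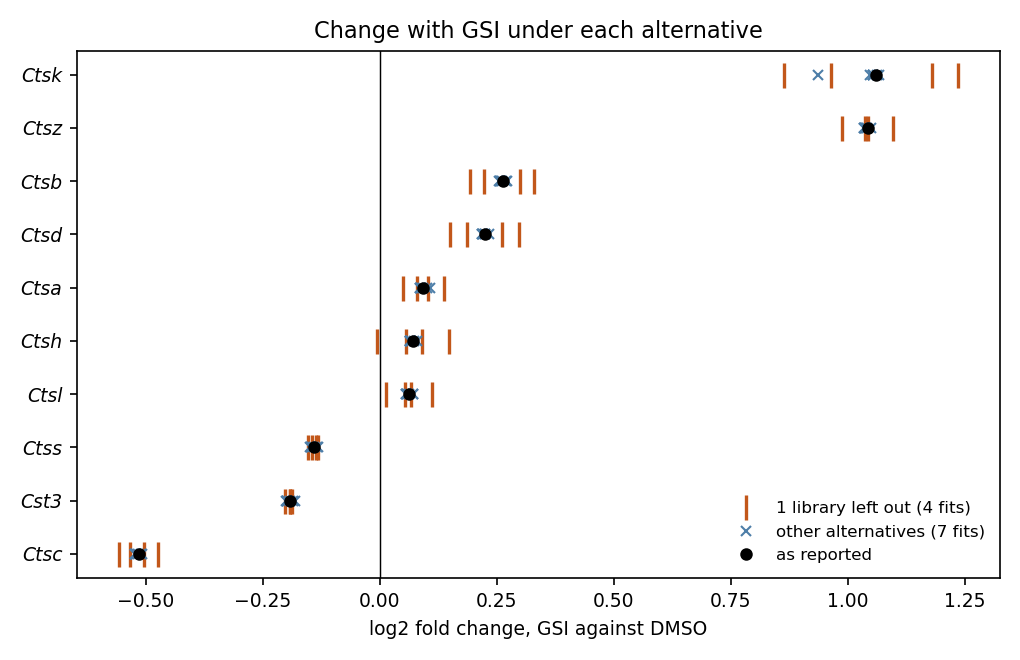
Log2 fold change (GSI against DMSO) of each of the 10 genes as reported (black), with 1 library left out (orange bars, 4 fits) and under the 7 other alternatives (blue crosses). *Ctsz*, *Ctsk* and *Ctsc* stay far from 0 in every fit, whereas *Ctsh* spans 0, from -0.0054 to 0.15.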

How the data were processed

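Per the labels and the study's methods, the authors made strand-specific poly(A) libraries and aligned reads with STAR 2.5.0a to mm10 (GRCm38). The processing notes also name mm9. Reads were counted per gene with HTSeq. The methods name Entrez Gene for annotation, whereas the rows of the count table carry Ensembl gene IDs. The deposited values are raw counts, without normalization, in 16 columns. The 4 columns of each replicate, taken as runs, differed over all genes by about as much as sampling noise (chi-square per degree of freedom 1.01 to 1.03; over the 10 genes 0.949 to 2.02, highest in GSI replicate 2, where the smallest p of a gene was 1.6e-04) and were summed to 4 libraries of 42694655 to 56932059 counts. The floor of 3 counts covers counting error only. The test was edgeR 4.0.16 (R 4.3.3; glmQLFit, glmQLFTest) with filterByExpr, TMM and group as the only factor, with Benjamini-Hochberg adjustment over 13211 genes. The SE is the log2 fold change divided by the square root of F. The test draws the spread of each gene toward a trend over all genes, so a p does not rest on that gene's 4 libraries alone. Ratios and shares of summed counts were tested with exact permutation tests. Exons came from GENCODE M21, in which 98.9% of gene IDs were found. The scripts were tested on simulated data. The 10 genes and the related lists were chosen with earlier results of these data known. The genes named are these 10, every other tested cathepsin and cystatin, the 3 largest called changes of each related list, and the 3 genes nearest to *Ctsk*; other genes named beside them were chosen after their values were seen. Alternatives were DESeq2 1.42.0, other normalizations and filters, a replicate block, run 1 alone, other gene lengths and leaving out each library.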

Additional observations from a re-analysis of the deposited data

How the results depend on the processing

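Over the 11 alternative fits, *Ctsz*, *Ctsk* and *Ctsc* kept their calls. Of 110 values of the 10 genes, 100 kept their direction and side of the threshold, 9 lost the call and 1 turned. With 1 library left out, the log2 fold change ranged from 0.05 to 0.14 for *Ctsa*, 0.19 to 0.33 for *Ctsb*, -0.56 to -0.47 for *Ctsc*, 0.15 to 0.30 for *Ctsd*, -0.0054 to 0.15 for *Ctsh*, 0.86 to 1.24 for *Ctsk*, 0.01 to 0.11 for *Ctsl*, -0.15 to -0.13 for *Ctss*, 0.99 to 1.10 for *Ctsz* and -0.20 to -0.19 for *Cst3*. The turned value was -0.0054 for *Ctsh* without DMSO replicate 2. The number of the 10 genes called ranged from 3 to 5, beside 30.7% to 36.5% of all tested genes in those fits. With run 1 of each replicate only, *Cst3* was at -0.18 and lost its call. The *Cst3* ratio ranged from 1.22 to 1.30 and the reallocated share from 7.38 to 8.71 percentage points. The reallocated share was 9.54 points after division by merged exon length and 9.28 by principal transcript length. By longest transcript 6 genes kept their rank in level per kilobase, and by principal transcript, a length chosen after seeing the data, 5 did. The same-numbered replicates' deviations correlated at 0.155, and with 2 per group the numbers were not taken as pairs. The replicate block called 6444 genes instead of 5392 and gave *Ctsz* 1.04 and *Cst3* -0.19, with the same 6 genes called. DESeq2 called 4048 of all genes. The related lists held 22 called genes of 52 tested, near the 40.8% of all tested genes, and 20 to 24 under the alternatives. The block added a call for *Ctsf* (-0.24). The size of change that 2 libraries per group can detect was not tested.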
